A study of Rattus norvegicus with 3 samples.

Results

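The genes described here are 3 genes known for the assembly of antigen receptor genes: Rag1, Rag2 and Dntt. They were chosen by name, as 3 of the 34034 features counted in both single-cell libraries, and were followed through every deposited cell label. The study made 10x single-cell RNA libraries of thymocytes and of CD45 negative stromal cells, and a Stereo-seq section, all from the thymus of 8-week-old Lewis rats, with no genotype or treatment given. The section's deposited values used by the study are not analysed here. Thymocytes were freed with collagenase D and DNase I, and stroma with Liberase TH and DNase I followed by magnetic enrichment and flow sorting of cells without the leukocyte antigen CD45. With 1 library of each kind, values have no replicate and no test was made. The number of animals behind each library is not given in the sources used here.

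As background, Rag1 and Rag2 encode the 2 subunits of the recombinase that cuts DNA beside the V, D and J segments of T cell receptor and immunoglobulin genes. Rag1 carries the catalytic site, and Rag2 is the partner that binds a histone mark of active chromatin. Dntt encodes terminal deoxynucleotidyl transferase (TdT), which adds bases without a template at the cut ends before they are joined. Developing T cells rearrange the Tcrb, Tcrg and Tcrd loci while double negative (DN, without CD4 and CD8), divide, and rearrange Tcra as double positive (DP) cells. A receptor signal in DP cells ends this programme, and developing B cells use the same enzymes in pro-B and pre-B stages.

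By label, all 3 genes stood highest in DP, as given below, although their falls differed. The 250 bases before each annotated start are therefore shown for what their promoters share, from RefSeq on the build GRCr8. The counts were made on mRatBN7.2, so these positions do not apply to the counts. Rag1 lies on the minus strand (chr3:108383185-108383434) and Rag2 on the plus strand (chr3:108357149-108357398), in opposite orientation with 4900 bases between the gene bodies, and Dntt on the plus strand (chr1:249805552-249805801). Each run reads 5′ to 3′ along its gene, and capitals mark matches to 4 core motifs searched on both strands.
Rag1: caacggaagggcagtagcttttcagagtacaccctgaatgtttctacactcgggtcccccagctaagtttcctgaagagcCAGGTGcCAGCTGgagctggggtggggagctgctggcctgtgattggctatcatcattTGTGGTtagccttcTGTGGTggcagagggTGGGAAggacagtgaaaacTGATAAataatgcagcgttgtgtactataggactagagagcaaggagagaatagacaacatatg
Rag2: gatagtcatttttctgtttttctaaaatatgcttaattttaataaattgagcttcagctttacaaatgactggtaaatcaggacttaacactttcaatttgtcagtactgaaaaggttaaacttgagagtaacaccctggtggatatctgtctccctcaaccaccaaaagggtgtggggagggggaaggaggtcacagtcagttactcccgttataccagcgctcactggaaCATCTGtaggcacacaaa
Dntt: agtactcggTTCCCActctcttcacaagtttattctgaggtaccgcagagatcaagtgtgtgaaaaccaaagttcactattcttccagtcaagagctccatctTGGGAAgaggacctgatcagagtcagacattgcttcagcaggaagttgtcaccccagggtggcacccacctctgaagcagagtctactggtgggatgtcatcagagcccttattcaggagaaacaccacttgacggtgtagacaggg
The E protein core, CAGNTG, occurred at 2 places in the Rag1 run (170 to 165 and 163 to 158 bases before the start) and at 1 place in the Rag2 run (18 to 13 bases before it), and in 43.3% of 33469 promoters of this length. The Rag1 run also held the RUNX core TGTGGT at 2 places (14.5% of promoters), the GATA core NGATAA at 1 (23.4%) and the Ikaros core TGGGAA at 1 (22.1%). The Dntt run held the Ikaros core at 2 places, 241 to 236 and 147 to 142 bases before the start. No motif searched was in all 3 runs. These matches are letters in a window and were not tested for binding.

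The thymocyte library held 8546 annotated cells with a median of 3994 UMIs (unique molecular identifiers, 1 per captured RNA molecule), and the stromal library 13226 annotated cells with a median of 9088. In the thymocyte library 205 cells had over 10% mitochondrial UMIs, the highest 54.2%, while the stromal library ended at 4.99%. The libraries shared 38 cell barcodes. Labels are the authors', projected from a reference or, where none was given, the initial cluster, so they were built from the same cells' RNA and the stage course is a description. Levels are CPM, the gene's UMIs per 1000000 UMIs of all cells of a label, with exact Poisson 95% intervals that cover counting error only.

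The labels were checked against defining markers, and the DN label did not match its name in full. Of its 390 cells, 96.4% had a UMI of Cd8a, 74.4% of Cd4, 94.9% of Ptcra (the pre-T-cell receptor chain) and 96.2% of the division gene Mki67, but only 18.2% of Kit and 6.92% of Il2ra, genes of early DN cells. The 128 cells labelled gdT had Kit in 42.2%, Hes1, a target of Notch signals, in 79.7% and Ptcra in 79.7%, and 111 of them lay in the initial cluster named DN. Only 192 of the 390 DN-labelled cells lay in that cluster. Both names are therefore used below only as labels. The DP label matched its name, with Cd4 in 96.5%, Cd8a in 96.0% and Mki67 in 2.92% of 5202 cells.

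All 3 genes stood highest in the DP label, and all 3 fell to low levels in the labels that follow it, Rag1 and Rag2 earlier than Dntt. Rag1 was at 298 CPM in DN, 367 CPM in the cycling label DP-P, 1952 CPM (1932 to 1972) in DP, 154 CPM in Pre DP-sig and 34.9 CPM in DP-sig. Rag2 ran from 58.3 CPM in DN and 62.6 CPM in DP-P to 162 CPM in DP, and then to 7.50 CPM in Pre DP-sig and 2.33 CPM in DP-sig, the last on 3 UMIs. Dntt ran from 315 CPM in DN and 336 CPM in DP-P to 865 CPM in DP, and kept 361 CPM in Pre DP-sig and 97.0 CPM in DP-sig. By label the highest levels therefore coincide, while the falls do not.

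**Figure D1:**
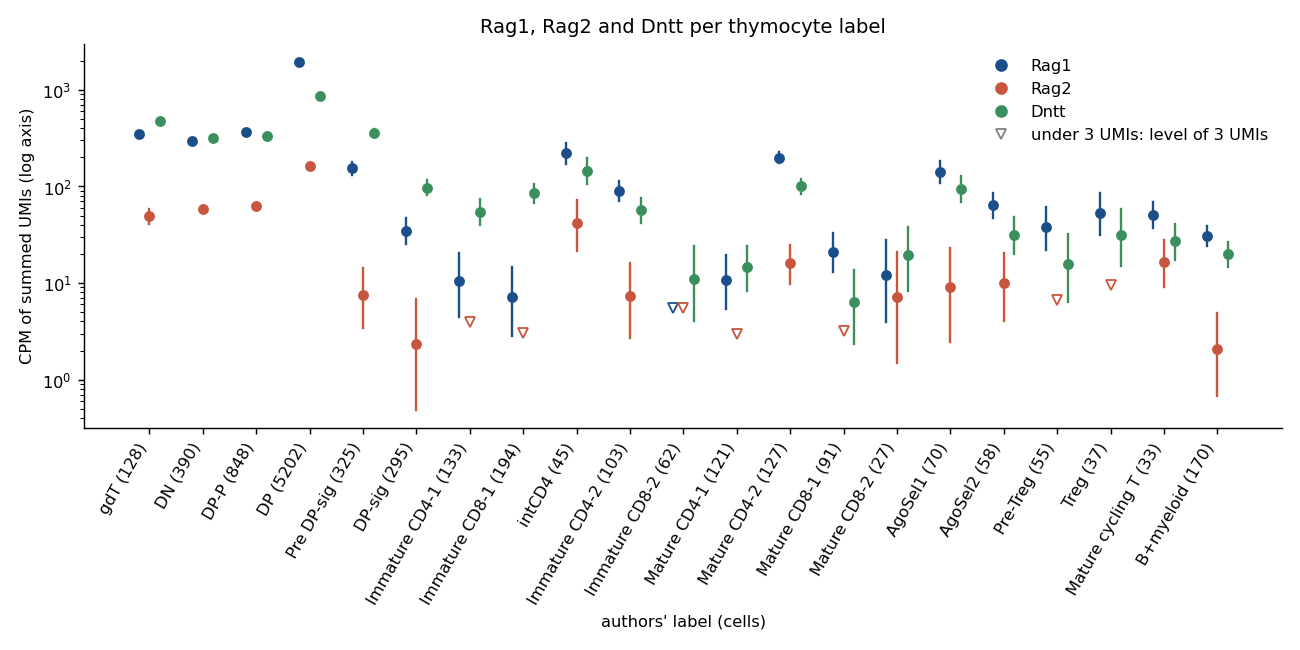
CPM of summed UMIs (log axis) of Rag1, Rag2 and Dntt in 21 labels of the thymocyte library with at least 20 cells, cell numbers in brackets. Points are levels, lines exact Poisson 95% intervals, and open triangles the level of 3 UMIs where fewer were seen. The 3 genes are highest in DP, where Rag1 is at 1952 CPM.

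Rag1 in DP was 6.54-fold (6.31 to 6.78) its level in DN, 55.9-fold (41.8 to 76.6) its level in DP-sig and 24.8-fold (22.1 to 27.9) that in the 4 mature CD4 and CD8 labels pooled. Rag2 was 2.78-fold (2.55 to 3.03), 69.4-fold (23.7 to 337) and 22.6-fold (15.4 to 34.6) higher in DP in the same 3 comparisons. Dntt was 2.74-fold (2.64 to 2.85), 8.91-fold (7.47 to 10.7) and 20.1-fold (17.2 to 23.7) higher. Rag1 thus rose more steeply into DP than the other 2, and Dntt fell least into DP-sig. Over DP-P, the DP level was 5.32-fold for Rag1, 2.58-fold (2.41 to 2.77) for Rag2 and 2.57-fold (2.49 to 2.65) for Dntt.

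The 3 members were at least 2-fold higher in DP in all 4 comparisons, against 26.3% of genes with at least 100 UMIs over DN, 20.8% over DP-P, 10.9% over DP-sig and 18.3% over the pooled mature labels. Ranked by the ratio of DP over DP-sig, Rag2 came first, Rag1 second and Dntt at place 68 among 9304 genes. The place of Rag2 rests on 3 UMIs in DP-sig, and the interval of its ratio overlaps that of Rag1. Over the mature labels the places were 16 for Rag1, 25 for Rag2 and 43 for Dntt among 9631 genes. Over DN they were 276, 1464 and 1493 of 10244, so the rise into DP placed Rag2 and Dntt among many other genes. Labels were drawn from these same counts, so the places are descriptive.

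The size of the DN to DP step depended on the scale, because DN-labelled cells had 7.64 times, and DP-P cells 5.55 times, the mean UMIs of DP cells. Per cell, Rag1 averaged 8.29 UMIs in DN, 7.4 in DP-P and 7.10 in DP, which puts DP at 0.856 of DN. Rag2 averaged 1.62, 1.26 and 0.588 UMIs per cell, a DP level of 0.363 of DN. Dntt averaged 8.75, 6.78 and 3.14 UMIs per cell, a DP level of 0.359 of DN. By label, the rise into DP is thus a rise in the share of a smaller RNA pool, and the count per cell did not rise for any of the 3. Against only the 192 DN-labelled cells of the DN cluster, Rag1 per cell was higher in DP, at 7.10 against 6.10 UMIs. Rag2 and Dntt were lower in DP there too, against 1.21 and 10.97 UMIs per cell. The median DP cell held 6 Rag1 UMIs (middle 50% of cells 4 to 10), as did the median DN cell (2 to 12).

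Thinning every cell to 1000 UMIs put the labels at 1 depth. Rag1 then had a UMI in 32.8% of DN, 32.2% of DP-P and 80.0% of DP cells, against 84.9%, 89.4% and 95.9% before thinning. Rag2 had one in 7.44%, 7.19% and 14.6%, against 59.5%, 53.1% and 38.9% before. Dntt had one in 26.2%, 28.0% and 55.9%, against 95.6%, 96.0% and 90.0% before. At equal depth the DP share was the highest for each gene, and 38 of the 5202 DP cells were left out as shallower than 1000 UMIs. Pre DP-sig and DP-sig are 1.02 and 1.20 times as deep as DP on average, so the falls after DP are alike on the CPM and per-cell scales.

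**Figure D2:**
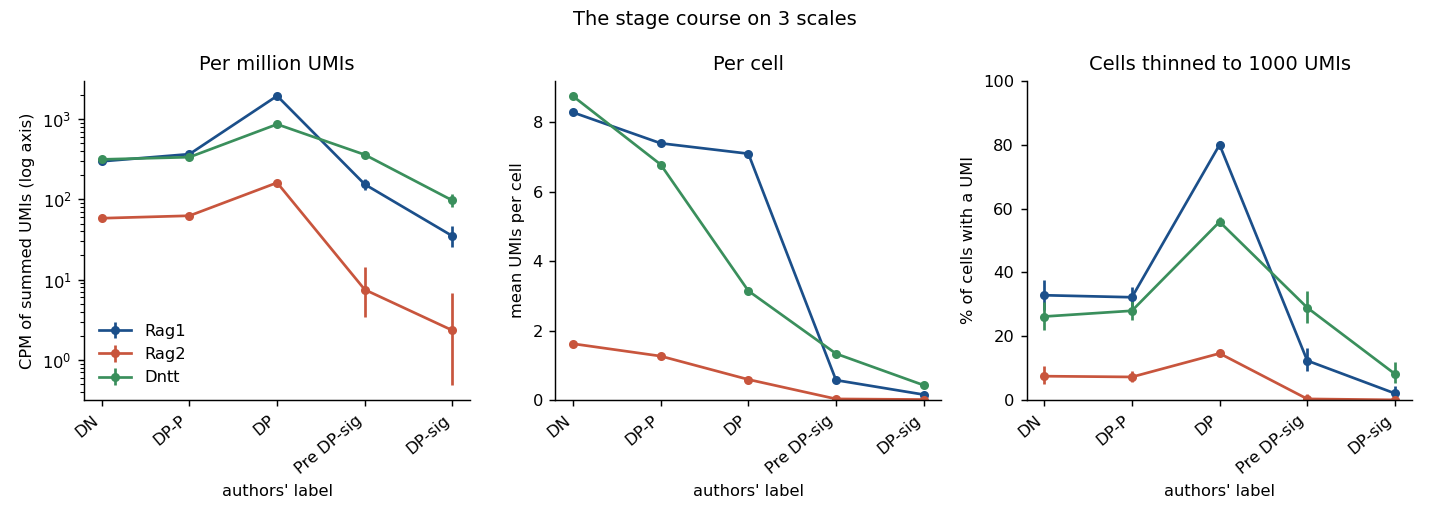
Rag1, Rag2 and Dntt from DN to DP-sig as CPM of summed UMIs (log axis), as mean UMIs per cell, and as % of cells with a UMI after thinning each cell to 1000 UMIs. Bars are exact 95% intervals (Poisson at left, Clopper-Pearson at right). DP is highest in the panels by CPM and by share and lies below DN in the panel per cell, where Rag1 runs from 8.29 to 7.10.

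Within the DP label the level of Rag1 fell with the depth of the cell, from 2493 CPM in the shallowest 25% of cells through 2356 and 2010 to 1520 CPM in the deepest 25%. Dntt moved less, at 939, 941, 881 and 789 CPM. Rag2 was at 179, 178, 147 and 157 CPM. The deepest cells were lowest for Rag1 and Dntt but not for Rag2. What depth has to do with these levels was not tested.

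Rag1 and Rag2 kept no fixed proportion. UMIs of Rag2 per UMI of Rag1 went from 0.195 in DN and 0.171 in DP-P to 0.0828 in DP. Dntt per Rag1 went from 1.06 in DN and 0.917 in DP-P to 0.443 in DP, and then to 2.34 in Pre DP-sig and 2.78 in DP-sig. These ratios compare labels and not the amounts of the RNAs, since capture can differ between genes. In thinned DP cells 12.3% held both Rag1 and Rag2, against 11.7% from the product of the single shares, a ratio of 1.05. In DP-P the shares were 3.54% and 2.32%, a ratio of 1.53, and the ratio was 1.37 in DN and 1.94 in gdT. The interval of the observed share was above the product in DP-P (2.40% to 5.01%) and included it in DN, gdT and DP.

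The labels were then crossed with the initial clusters. DN-labelled cells of the DN cluster (192 cells) had Rag1 at 149.7 CPM, Rag2 at 29.6 CPM and Dntt at 269 CPM. DN-labelled cells of cluster DP-P2 (151 cells) had 702, 110.0 and 419 CPM in the same order, and those of DP-P3 (36 cells) 690, 214 and 495 CPM. A single label therefore spans a wide range of Rag1, and against the DN-labelled cells of the DN cluster alone the DP level was 13.0-fold for Rag1, 5.45-fold for Rag2 and 3.21-fold for Dntt. DP-P cells ran from 175 CPM of Rag1 in the DN cluster (199 cells) through 447 CPM in DP-P1 (521 cells) to 977 CPM in DP-P3 (123 cells).

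Rag2 had its highest level not in DP cells but in the DP-P cells of cluster DP-P3, at 278 CPM (251 to 306), against 162 CPM (156 to 168) in the DP label. These cells held 3.28 Rag2 UMIs each, and 85.4% had at least 1. Their Mki67 stood at 989 CPM, against 13.1 CPM in DP cells of cluster DP1 and 5.12 CPM in those of DP2. Rag1 in the same DP-P3 cells was at 977 CPM (927 to 1029), below the 1809 CPM of DP1 and the 2331 CPM of DP2, and Dntt at 601 CPM, below 856 and 919 CPM. In CPM, Rag2 thus had its summit in other cells than Rag1 and Dntt, as a description, since the same counts made the clusters. Per cell, the same DP-P3 cells also held more Rag1 (11.5 UMIs) and Dntt (7.10) than DP cells. Those of DP1 held 7.27 and 3.44, and those of DP2 6.87 and 2.71. The separate summit therefore depends on the scale.

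**Figure D3:**
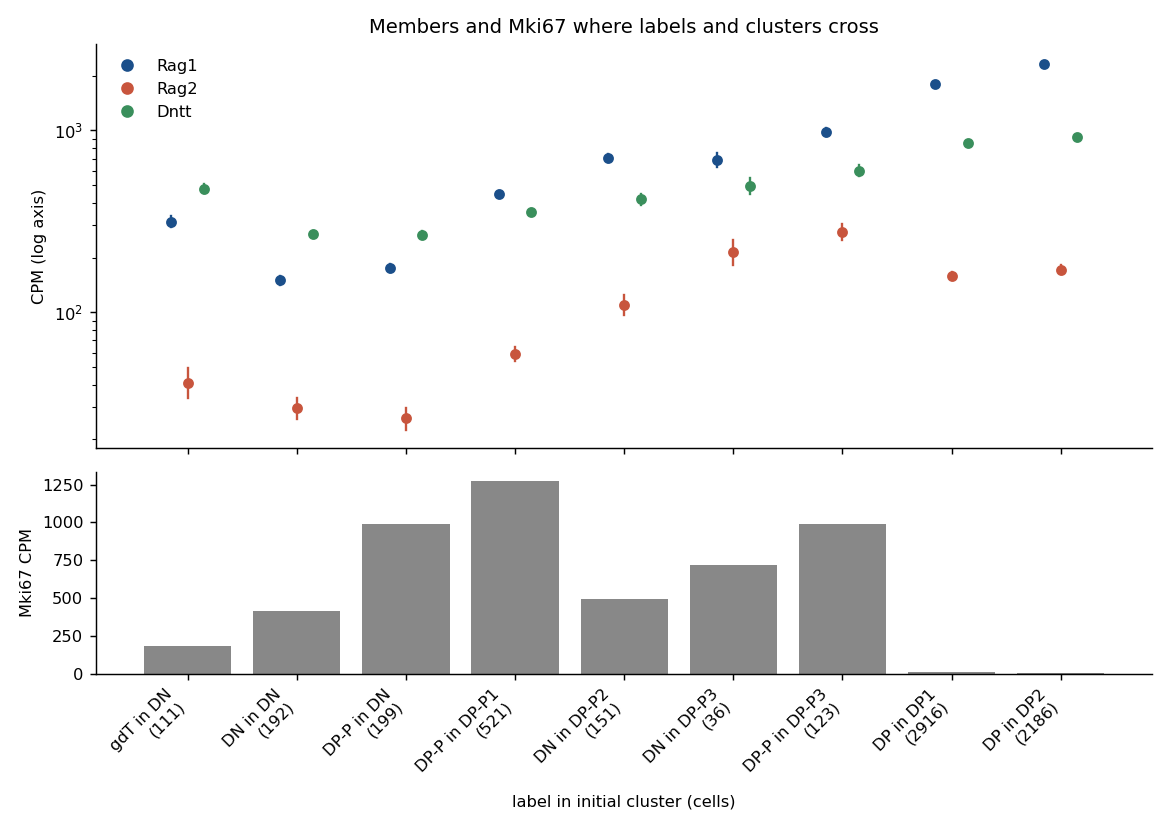
Upper panel, CPM (log axis) of Rag1, Rag2 and Dntt with exact Poisson 95% intervals where labels and initial clusters cross, cell numbers in brackets. Lower panel, CPM of the division gene Mki67 in the same cells, as bars. Rag2 is highest in DP-P cells of DP-P3, at 278 CPM, while Rag1 and Dntt are highest in DP cells of DP2.

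Cells labelled gdT, 111 of 128 from the DN cluster, had more Dntt than the DN label, and more Rag1 in CPM only. Dntt was at 481 CPM in gdT against 315 CPM in DN, a ratio of 1.53 (1.43 to 1.63), or 1.17 (1.09 to 1.25) per cell. It had a UMI in 94.5% of gdT and 95.6% of DN cells, and after thinning in 41.4% and 26.2%. Rag1 was at 348 CPM, 1.17 times (1.08 to 1.25) DN, and Rag2 at 49.2 CPM, 0.845 times (0.696 to 1.02) DN, an interval that includes 1. Per cell, Rag1 was at 0.892 (0.829 to 0.959) of DN, and after thinning it was in 28.1% of gdT and 32.8% of DN cells. Within the DN cluster the 111 gdT-labelled cells had Dntt at 478 CPM and Rag1 at 316 CPM, against 269 and 149.7 CPM in the DN-labelled ones. Mki67 was lower in them, at 180 against 414 CPM, and Kit was found in 48.6%.

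Within the DN and DP-P labels, cells with a Cd4 UMI had Rag1 more often. After thinning, Rag1 was found in 52.0% of the 77 DN cells with a Cd4 UMI and in 28.1% of the 313 without, a ratio of 1.85 (1.40 to 2.44). In DP-P the shares were 47.5% of 238 and 26.2% of 610 cells, a ratio of 1.81 (1.5 to 2.19). The Rag2 share in DP-P was 15.6% with Cd4 and 3.93% without, a ratio of 3.95 (2.42 to 6.46), and that of Dntt 34.0% and 25.6%, a ratio of 1.33 (1.07 to 1.66). The split by Cd4 thus moved Rag2 more than Dntt within DP-P. In DN the ratio for Rag2 was 1.83 (0.867 to 3.86), and 0.952 at 500 UMIs, which gives no direction, and for Dntt 1.46 (1.02 to 2.10). At 500 and 2000 UMIs the DP-P ratio for Rag2 was 2.12 and 2.24, so its size depended on the depth chosen. Cells with a Cd4 UMI were also the shallower ones before thinning, and the part of depth was not tested.

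The split by mitotic genes gave ratios that differed between members and in part depended on the depth chosen. Among DP-P cells, Rag1 was found in 36.2% of the 607 cells with 4 or more UMIs of a list of 10 mitotic genes and in 22.3% of the 206 with 1 to 3, a ratio of 1.62 (1.23 to 2.14) that was 1.18 at 500 UMIs. Dntt was found in 28.2% and 26.7%, a ratio of 1.06 (0.814 to 1.37), and the Rag2 ratio was 1.39 (0.752 to 2.55), intervals that include 1. Among DP cells, Rag1 was found in 70.1% of the 184 cells with 1 to 3 mitotic UMIs and in 80.4% of the 4975 with none, a ratio of 0.872 (0.793 to 0.959) that was 0.986 at 2000 UMIs. The difference among DP cells thus depended on the depth chosen. For Rag2 in the same split the ratio was 1.60 (1.21 to 2.10) at 1000 UMIs but 0.835 at 500 and 0.921 at 2000, so no direction can be read.

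The labels Pre DP-sig (325 cells) and DP-sig (295 cells) hold cells with rising Cd69, an early gene of receptor signalling, whose UMIs were found in 1.17% of DP, 16.9% of Pre DP-sig and 40.3% of DP-sig cells. The DP level was above that of Pre DP-sig 12.7-fold (11 to 14.7) for Rag1 and 21.6-fold (11.3 to 47.2) for Rag2, but 2.40-fold (2.18 to 2.64) for Dntt. From Pre DP-sig to DP-sig the ratio was 4.41 for Rag1 and 3.72 for Dntt. In fold terms the first step was thus the larger for Rag1 and the second for Dntt, although in CPM Dntt also lost more at the first. For Rag2 the second ratio was 3.22, with an interval of 0.804 to 18.5 on 9 and 3 UMIs, which does not fix a direction. With the initial clusters in place of labels, DP stood over Early SP, which holds 284 of the 295 DP-sig cells among 874, by 12.2-fold for Rag1, 11.5-fold for Rag2 and 4.97-fold for Dntt.

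At equal depth, Dntt had a UMI in 28.9% of Pre DP-sig cells, a share close to that in DN (26.2%), while Rag1 was down to 12.3%. In DP-sig the shares were 8.14% for Dntt and 2.03% for Rag1, and Rag2 was in 0 of 295. None of the 3 members was seen in 8.54% of thinned DP cells, 64.0% of Pre DP-sig and 90.5% of DP-sig cells. Within Pre DP-sig, the 33 cells of cluster DP2 still had Rag1 at 494 CPM, the 145 of DP1 191 CPM and the 146 of the cluster Early SP 67.2 CPM. Dntt was at 514, 447 and 262 CPM in the same cells. Dntt therefore fell less than Rag1 across those clusters too.

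Dntt outlasted the Rag genes in Immature CD8-1 most clearly. In Immature CD8-1 (194 cells) Dntt was at 85.4 CPM with a UMI in 30.9% of cells, against 7.12 CPM for Rag1, a Dntt to Rag1 ratio of 12. In Immature CD4-1 (133 cells) Dntt was at 54.7 CPM and in 14.3% of cells, against 10.4 CPM for Rag1, a ratio of 5.25, and Rag2 had 0 UMIs, where the floor of 3 UMIs is 3.91 CPM. As a background for these shares, B-marker cells of the same library had Rag1 in 2.78% and Dntt in 8.33% of 36 cells at a median of 14312 UMIs. Thinned to 1000 UMIs, Dntt was in 8.76% (5.19 to 13.7) of Immature CD8-1, 4.51% (1.67 to 9.56) of Immature CD4-1 and 3.70% (1.37 to 7.89) of all B+myeloid cells. At this equal depth the intervals of both labels overlapped that of B+myeloid cells. Before thinning, the Immature CD8-1 share of Dntt lay above that of the B-marker cells and the Immature CD4-1 share overlapped it. In CPM, the Dntt intervals of Immature CD8-1 (68.1 to 105.7) and Immature CD4-1 (39.4 to 74.0) lay above both backgrounds. These were 20.1 CPM (14.8 to 26.6) in B+myeloid and 8.19 CPM (2.23 to 21.0) in B-marker cells. The 30 B-marker cells without a UMI of Cd8a, Cd8b or Ptcra had no Dntt UMI. The Rag1 levels of both labels rest on too few UMIs to be told from that background. Immature CD8-2 (62 cells) had Dntt at 11.1 CPM and Rag1 at 3.70 CPM, the lowest Rag1 level of the 21 labels, on 2 UMIs. In Immature CD4-2 (103 cells) the ratio of Dntt to Rag1 was 0.635, with 57.6 and 90.7 CPM.

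Some labels named for later cells held unexpected Rag1, and in each it sat in a few cells. Rag1 was at 222 CPM in intCD4 (45 cells), 199 CPM in Mature CD4-2 (127 cells), 142 CPM in AgoSel1 (70 cells) and 90.7 CPM in Immature CD4-2 (103 cells). In Mature CD4-2, 28 cells with 3 or more Rag1 UMIs held 241 of the label's 250. Those 28 cells had Cd8b in 100% and Ptcra in 57.1%, against 22.8% and 1.09% of the 92 cells without Rag1. Markers of mature cells differed little, with Ccr7 in 35.7% against 28.3% and S1pr1 in 71.4% against 68.5%. The Rag1 cells thus carried RNA of DP cells beside RNA of mature cells, at a median of 12510 UMIs against 8496 UMIs. Rag2 was in 46.4% of them against 0, and Dntt in 92.9% against 8.70%.

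In intCD4, 11 cells with 3 or more UMIs held 62 of 64 Rag1 UMIs, at a median depth of 2952 UMIs against 6623 UMIs, and none had a UMI of Ccr7, Cd69 or Il7r. Klf2 and S1pr1 were each in 9.09% of these 11 cells, so late markers were few, unlike in the Rag1 cells of Mature CD4-2. Cd4 was in 100% of the 11, and Cd8a and Cd8b each in 90.9%. The 31 intCD4 cells of the cluster Mature SP held 4 of the label's Rag1 UMIs, in 1 cell. A few cells decided the other values. In Immature CD4-2, 5 cells held 72 of 74 Rag1 UMIs, and in AgoSel1 6 cells held 61 of 63. Without mature cells that had a UMI of Ptcra, the ratio of DP over the pooled mature labels was 51.9 for Rag1, 38.4 for Rag2 and 38.8 for Dntt, in place of 24.8, 22.6 and 20.1. Doublets were not called here, and their part was not tested.

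In the remaining labels the Rag1 level was 64.5 CPM in AgoSel2, 53.7 in Treg, 50.8 in Mature cycling T, 38.0 in Pre-Treg, 31.0 in B+myeloid, 21.1 in Mature CD8-1, 12.1 in Mature CD8-2 and 10.8 in Mature CD4-1. In the order of Rag1 levels, DP stood clear of DP-P, gdT of DN and DN of intCD4, and all other neighbours had overlapping intervals. Rag2 in intCD4 was at 41.7 CPM, and elsewhere outside DN, DP-P, DP and gdT at most 16.6 CPM, and only DP and DP-P were separate neighbours in its order. Dntt was at 146 CPM in intCD4, 101 CPM in Mature CD4-2, 95 CPM in AgoSel1, 57.6 CPM in Immature CD4-2, and between 6.33 CPM in Mature CD8-1 and 31.6 CPM in Treg and AgoSel2 in the rest. Mature CD8-1 thus had the lowest Dntt level of the 21 labels.

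The stromal library held 179 cells labelled as B cells, although the sort was for cells without CD45, which B cells carry. Rag1 was at 35.0 CPM (28.5 to 42.6) in them with a UMI in 18.4% of cells, Rag2 at 14.4 CPM (10.3 to 19.5) in 17.9%, and Dntt at 25.9 CPM (20.3 to 32.5) in 9.50%. Fibroblasts and endothelium pooled, 9286 cells which should lack the genes, gave a background of 1.06, 0.102 and 0.364 CPM and 0.797%, 0.0754% and 0.259% of cells, at a median of 8853 UMIs against 14761 UMIs. The B cell label was thus above it 33.1-fold (24.7 to 44.4) for Rag1, 140-fold (67.1 to 328) for Rag2 and 71.1-fold (46.4 to 111) for Dntt. Thymocytes left in the same library (411 cells) had 959, 60.6 and 321 CPM.

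The proportions of the genes differed from those of DP cells. Rag2 made up 29.1% (21.7 to 37.3) of the Rag UMIs of the B cell label, against 7.65% in DP cells. Some labels with dividing thymocytes were nearer, with 16.3% (15.2 to 17.5) in DN and 14.6% (13.8 to 15.4) in DP-P. Mature cycling T had 24.6% (14.1 to 37.8), an interval that overlaps that of the B cell label. Per Rag1 UMI there were 0.410 Rag2 UMIs in the B cell label, 0.0845 in the stromal fibroblasts and 0.0632 in the stromal thymocytes. The label as a whole thus differed from DP cells and from the stromal thymocytes, but not from every thymocyte label. In the 162 cells without Cd8a, Cd8b or Ptcra, Rag2 made up 36.2% (26.5 to 46.7). In the 70 without any of 8 T cell genes it was 13.3% (1.66 to 40.5) on 2 of 15 UMIs, an interval that includes the 7.65% of DP. The rule of at least 2 UMIs of the B cell markers, more than of the myeloid ones, kept 135 of the 179 cells. These had 35.1, 17.1 and 25.6 CPM of Rag1, Rag2 and Dntt, and the other 44 had 34.7, 6.67 and 26.7 CPM. The marker list named 9 genes, of which 7 are features of the files.

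Among the 135 cells, the members stood higher in those without the division gene Mki67. The 27 cells without an Mki67 UMI had Rag1 at 354 CPM (261 to 470) with a UMI in 51.9%, against 13.2 CPM in the 108 with one, a ratio of 26.9 (16.3 to 45.1). Rag2 was at 96.0 against 11.7 CPM, a ratio of 8.22 (3.83 to 16.9), and Dntt at 199 against 13.7 CPM, a ratio of 14.6 (8.21 to 25.8). The cells without Mki67 were shallower, with a median of 5184 against 16275.5 UMIs, yet also held more per cell, by 7.39-fold (4.49 to 12.4) for Rag1, 2.26-fold (1.05 to 4.65) for Rag2 and 4-fold (2.26 to 7.09) for Dntt. The Dntt values rest on 3 of the 27 cells, which held all 27 UMIs, and the share of cells with Dntt was 11.1% (2.35 to 29.2) against 5.56% (2.07 to 11.7), intervals that overlap. None of the 27 had a UMI of Cd8a, Cd8b or Ptcra. Without the 8 Mki67 cells that had one, the Rag1 ratio was 63.5 (31.7 to 140.7), the Rag2 ratio 9.05 and the Dntt ratio 16.2.

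Igll1, a surrogate light chain gene of pro-B and early pre-B cells, divided the B-marker cells by Dntt. The 68 cells with Igll1 held 51 Dntt UMIs, 40.5 CPM, in 8 cells with up to 19 UMIs each, and the 67 without it 3 UMIs in 1 cell, 3.54 CPM, a ratio of 11.4 (3.70 to 57.3). In CPM Rag1 went the other way, at 21.4 CPM with Igll1 and 55.5 CPM without, and Rag2 was at 16.7 and 17.7 CPM. The shares of cells with Rag1 had overlapping intervals, 13.2% (6.24 to 23.6) and 23.9% (14.3 to 35.9). Cells without Mki67 were 6 of the 68 and 21 of the 67. Among cells with Mki67, Rag1 was at 10.6 CPM (5.66 to 18.2) with Igll1 and 17.4 CPM (9.26 to 29.7) without. The part of Mki67 in the Rag1 difference was not tested. Nearly all Dntt UMIs of the B-marker cells thus lay with Igll1, but in 8 cells. Igll1 is itself among the B markers, so the rule dropped only cells without it. Over the whole B cell label, the 111 cells without Igll1 held 23 Dntt UMIs in 9 cells. That is 14.4 CPM (9.13 to 21.6), against 40.5 CPM (30.2 to 53.3) with Igll1. In B-marker cells without Cd8a, Cd8b or Ptcra, Dntt was at 44.2 CPM with Igll1. It had 0 UMIs in those without Igll1, where the floor of 3 UMIs is 3.67 CPM.

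Both divisions crossed in the 27 cells without Mki67. The 21 without Igll1 had Rag1 at 341 CPM, in 57.1% of cells, Rag2 at 90.3 CPM and no Dntt UMI. The 6 with Igll1 had Rag1 at 391 CPM, Rag2 at 112 CPM and Dntt at 754 CPM, the last from 27 UMIs in 3 cells. So cells without Mki67 had recombinase RNA with and without Igll1, and Dntt with it. Of the 21, 90.5% had Cd79a and 90.5% Pax5, both defining B cell genes, and 52.4% had a UMI of the T cell gene Cd3g, while Cd8a, Cd8b and Ptcra were at 0.

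Markers of T cells moved with these values in part. Cd3g had a UMI in 97.1% of the 68 Igll1 cells, all of which had Cd79a and Ebf1 and 94.1% of which had Pax5, while Cd8a was in 1 and Ptcra in 5 of the 68. In the 70 B-labelled cells without a UMI of any of 8 T cell genes, Rag1 was at 11.4 CPM, Rag2 at 1.76 CPM and Dntt at 0. Leaving out only cells with Cd8a, Cd8b or Ptcra kept 162 cells, with Rag1 at 23.2 CPM, Rag2 at 13.1 CPM and Dntt at 20.9 CPM. The first filter removed nearly all Igll1 cells by Cd3g alone.

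**Figure D4:**
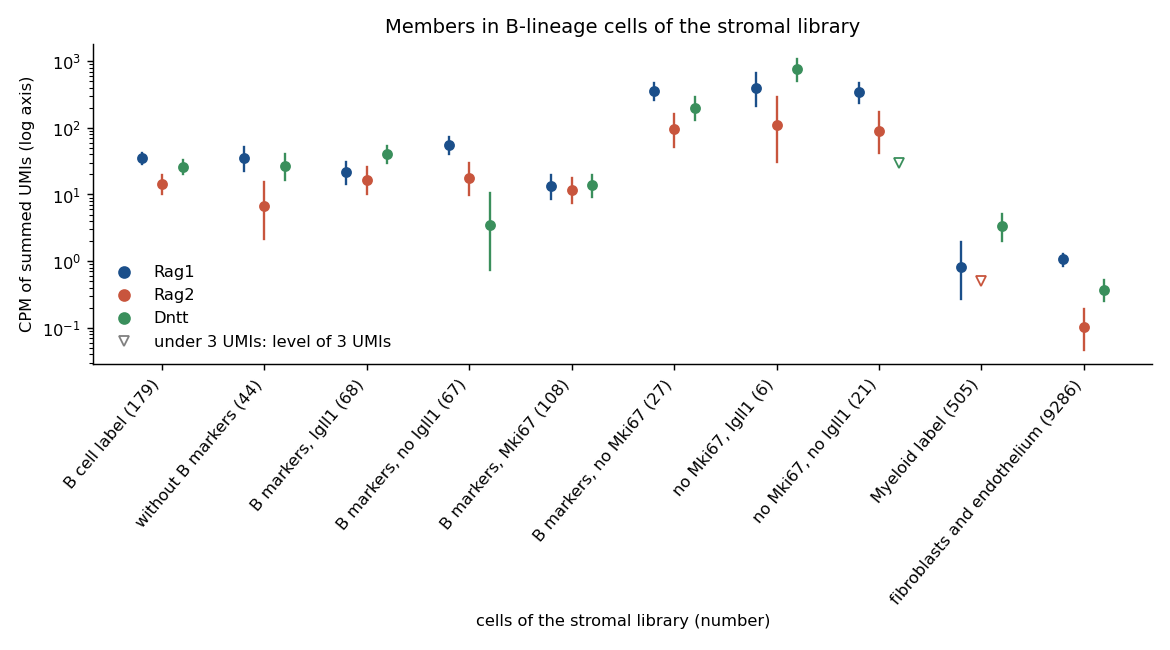
CPM of summed UMIs (log axis) of Rag1, Rag2 and Dntt in sets of cells of the stromal library, cell numbers in brackets, with exact Poisson 95% intervals and open triangles for the level of 3 UMIs where fewer were seen. The B-marker cells without Mki67 lie highest, Dntt has under 3 UMIs in the 21 of them without Igll1, and fibroblasts with endothelium mark the background, with Rag1 at 1.06 CPM.

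B cells of the thymocyte library had few UMIs of the genes. Its label B+myeloid had 36 cells that met the B marker rule, none with Igll1, at a median of 14312 UMIs. Rag1 had 8 UMIs in 1 of them, Rag2 none, and Dntt 4 UMIs in 3. In the 30 without Cd8a, Cd8b or Ptcra all 3 genes were at 0, with an exact 95% upper limit of 11.6% on the share of cells with a UMI.

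In the myeloid label of the stromal library (505 cells) Dntt stood above the background. Dntt had 20 UMIs in 15 cells (2.97%), or 3.31 CPM, 9.10-fold (4.93 to 16.4) the level of fibroblasts and endothelium, while Rag1 was at 0.783 times that level. The 15 cells had Lyz2 in 93.3% and Kit, a receptor of progenitors, in 46.7% against 7.76% of the other myeloid cells, and Flt3 in 20% against 0.816%, on 3 UMIs. These shares were not set at equal depth. In CPM, Kit was at 36.6 against 10.7 and Cst3 at 466 against 374. Other myeloid genes were lower, with Lyz2 at 2974 against 4942 CPM, Tyrobp at 478 against 874 CPM and Itgam in 13.3% against 42.0% of cells. What these cells are was not tested. They also had Cd8a in 20% against 2.86%, and they held all 5 Rag1 UMIs, in 2 cells, and the only Rag2 UMI of the label, so no myeloid cell without Dntt had a UMI of either Rag gene. Of 483 myeloid cells without Cd8a, Cd8b, Ptcra or Rag1, 12 kept a Dntt UMI (15 UMIs), still 7.27-fold (3.66 to 13.8) the background. In stromal labels mTEC2, MEC, aaTEC1, nmSC and muscle mimetic all 3 genes were at 0.

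The joining machinery was described from a list of 18 end-joining and break-response genes, of which 17 are in the files and 16 had enough UMIs. Over DN, 3 were at least 2-fold higher in DP and 6 lower (26.3% and 17.6% of all genes), with a list median log2 ratio of -0.11 against 0.27 for all genes. Those higher were Lig4, the ligase that seals the joint (511 against 60.4 CPM, 8.46-fold), Dclre1c, which encodes Artemis, the nuclease that opens the hairpin ends left by the recombinase (651 against 94.3 CPM, 6.91-fold), and Xrcc4, the partner of the ligase (141 against 51.1 CPM, 2.76-fold). The ratios of Lig4 and Dclre1c were therefore near the 6.54 of Rag1. Ratios of this list, the regulators and the locus neighbours are of CPM. DN-labelled cells had 7.64 times the mean UMIs of DP cells, so a CPM ratio below 7.64 is a lower count per cell in DP. That held for Dclre1c and Xrcc4 but not for Lig4. Lower were Hmgb2 by 9.11-fold, Xrcc6 (Ku70, which binds broken ends) by 5.08-fold, H2ax by 4.31-fold, Hmgb1 by 3.95-fold, Rad50 by 3.63-fold and Nbn by 3.33-fold. Mki67 was also lower in DP, and the part of division in these 6 was not tested.

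Over DP-P, 2 of the 16 were higher (Lig4 6.62-fold, Dclre1c 3.35-fold) and 6 lower (20.8% and 14.2% of all genes), led by H2ax at 13.3-fold and Hmgb2 at 12.6-fold, with a median of 0.04 against 0.27. Over DP-sig, 3 were higher and 0 lower (10.9% and 6.85%), with a median of 0.26 against 0.01. Those 3 were Dclre1c at 7.49-fold, Lig4 at 4.14-fold and Polm, a polymerase of the TdT family, at 3.32-fold on 4 UMIs in DP-sig. In CPM, Lig4 and Dclre1c were thus higher in DP than in DN, DP-P and DP-sig, as the members were. Per cell, Dclre1c was not higher over DN or over DP-P, whose cells had 5.55 times the mean UMIs of DP cells. Over the pooled mature labels 5 were higher (Lig4 10.9-fold, Dclre1c 10.1-fold, H2ax 2.28-fold, Hmgb1 2.24-fold, Xrcc4 2.13-fold) and 1, Xrcc6, was lower by 2.02-fold (18.3% and 8.71%), with a median of 0.67 against 0.32.

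Of 17 regulators of the members or of DP cells, 16 had enough UMIs. Over DN, 7 were higher and 1 lower, with a median of 0.92 against 0.27 (26.3% and 17.6% of all genes). Those higher were Tcf12, an E protein (3.99-fold), Foxp1 (3.82-fold), Satb1 (3.57-fold), Ikzf1, which encodes Ikaros (3.19-fold), Foxo1 (2.93-fold), Ikzf3 (2.93-fold) and Ets1 (2.58-fold). Against the 7.64-fold depth of DN-labelled cells, all 7 were lower per cell in DP. Tcf3, the other E protein gene listed, was lower by 2.32-fold in CPM. Both E protein genes, whose core motif stands in the Rag1 and Rag2 runs above, thus moved in opposite directions in CPM, and both were lower per cell. Over DP-P, 6 were higher (Tcf12, Satb1, Foxp1, Ikzf3, Ets1 and Ikzf1) and Tcf3 was lower (20.8% and 14.2% of all genes), with a median of 0.86 against 0.27. Against the 5.55-fold depth of DP-P cells, these 6 too were lower per cell in DP.

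Over DP-sig, 1 regulator was higher and 3 lower, with a median of -0.28 against 0.01 (10.9% and 6.85% of all genes), so the share higher was not above that of all genes. Tcf12 was 2.66-fold higher, while Id3, an inhibitor of E proteins, was lower by 14.6-fold, Gata3 by 3.69-fold and Zfp608 by 3.15-fold. Id3 stood at 366 CPM in DP-sig and 25.2 CPM in DP, where the members had the reverse order. Over the pooled mature labels, 4 were higher (Myb 8.31-fold, Tcf12 4.29-fold, Tcf7 3.59-fold and Ikzf3 2.11-fold) and 2 lower (Id3 by 8.92-fold and Foxo1 by 8.35-fold), shares near the 18.3% and 8.71% of all genes, with a median of 0.54 against 0.32.

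**Figure D5:**
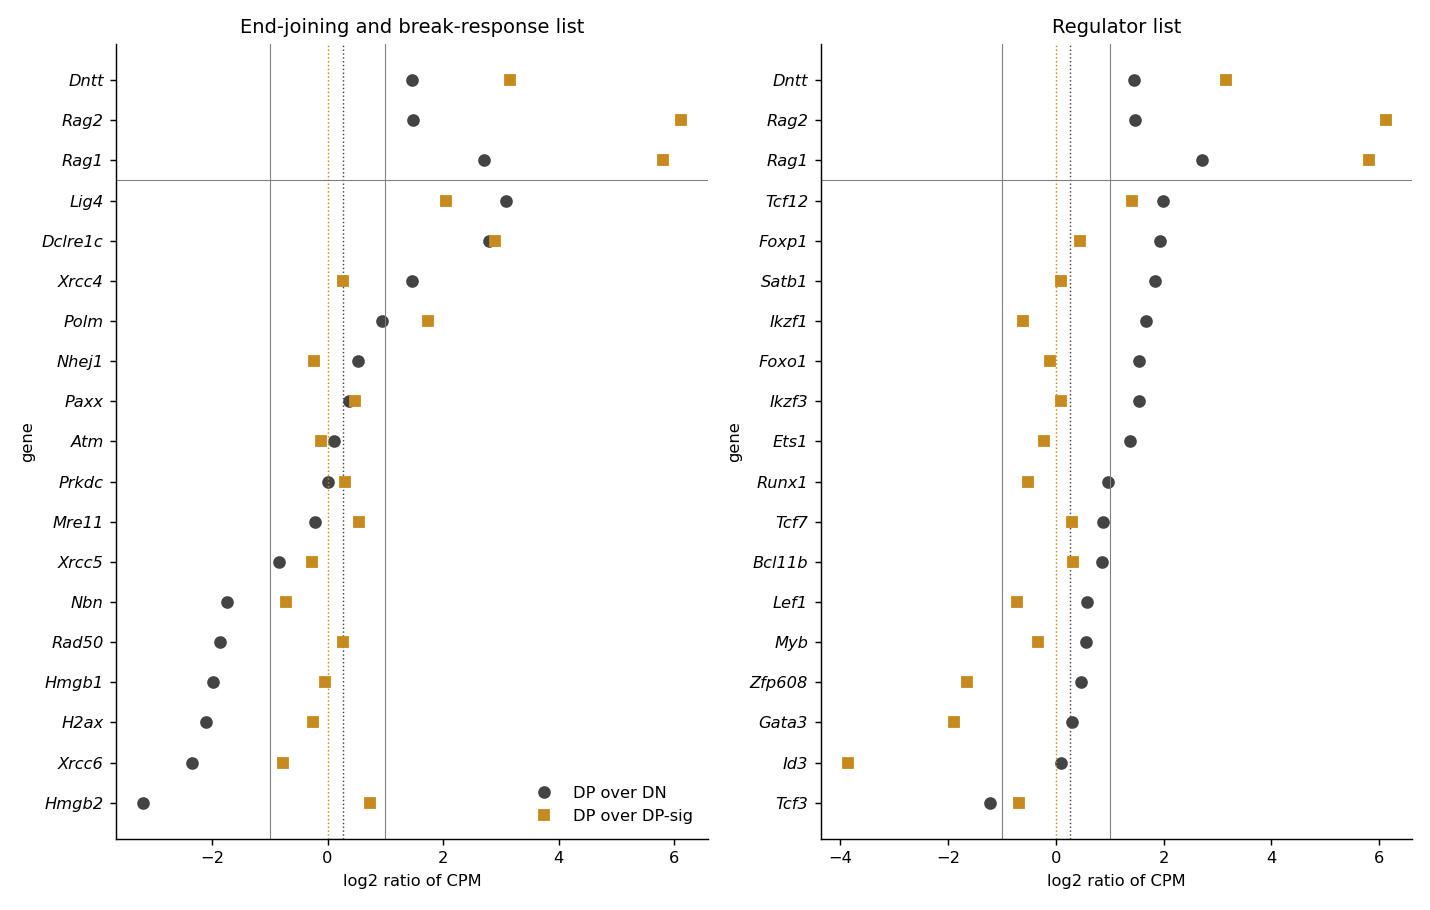
Log2 ratio of CPM of DP over DN (circles) and DP over DP-sig (squares) for the end-joining list and the regulator list, with Rag1, Rag2 and Dntt at the top of each panel. Grey lines mark 2-fold, and dotted lines the median of all genes in each comparison. Lig4 and Dclre1c lie right of 2-fold in both comparisons, as the members do, and Id3 lies farthest left over DP-sig.

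Of 8 genes listed beside the members' loci, 5 had enough UMIs. Iftap, which overlaps Rag2 in the annotation, was 3.02-fold higher in DP than in DN and 8.57-fold higher than in DP-sig, and LOC120100035, which overlaps Dntt, 7.68-fold and 11.1-fold. Whether the counting used strand is not given in the sources used here, so UMIs of these 2 genes cannot be told from those of Rag2 and Dntt. Traf6, which lies next to Rag1 and overlaps none of the members, was 2.46-fold higher than in DN and 1.60-fold higher than in DP-sig. Blnk, a B cell adaptor gene before Dntt, was at 6.50 CPM in DP and 12 CPM in DN, with no UMI in DP-sig, where DP was at least 2.79-fold higher against a floor of 3 UMIs. At least 3 of the 5 were thus 2-fold higher in DP in each comparison, beside the shares of all genes given above. Iftap and LOC120100035 were among them each time, so the count partly repeats the members and cannot be read against those shares. Of the other 3, Traf6 passed 2-fold over DN, DP-P (2.06-fold) and the pooled mature labels (2.01-fold) but not over DP-sig. Zfp518a did not pass in any comparison (1.71-fold over DN). Blnk passed over DP-sig and over the pooled mature labels (7.87-fold, on 2 UMIs there), both times against the floor of 3 UMIs.

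Likeness of pattern was measured by Pearson's r of log2(CPM + 10) over 21 labels, which share 1 library, among 8911 genes with at least 500 UMIs. For Rag1 the 5 most alike were Slc7a11, the cystine carrier (0.93), RT1-T18 (0.91), Rag2 (0.91), Tfdp2 (0.89) and Syt6 (0.89). For Rag2 they were RT1-T18 (0.94), Rag1 (0.91), Ccdc187 (0.91), RT1-N3 (0.90) and RT1-N2 (0.90). The Rag genes were thus among each other's nearest genes, while Dntt had none of the Rag genes among its 5, with r of 0.85 to Rag1 (place 20) and 0.79 to Rag2 (place 44). Its 5 were Tapt1 (0.94), Rnaseh2b (0.92), Pdzrn4 (0.92), Thy1, the thymocyte surface antigen (0.92), and Tap2, a peptide transporter (0.92). Thy1 was at 1824 CPM in DP and 1460 CPM in Pre DP-sig, which recalls the slower fall of Dntt, and Slc7a11 at 1949 and 397 CPM. The RT1 genes belong to a family of closely related class I genes, among which counts are uncertain.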

How the data were processed

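Counts of 2 libraries, made by 10x Genomics chemistry from thymocytes and from CD45 negative stromal cells, were used, with 1 sample per group and no replicate. The deposited matrices hold whole UMI counts per gene and barcode, and per the submitters' processing notes Cell Ranger 8.0.0, Seurat 5.3.0 and the build mRatBN7.2 were used; the annotation is not given in the sources used here. The percent of mitochondrial UMIs per cell is the authors' deposited value.

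Here UMIs were summed per label (labels of at least 20 cells) and divided by the label's total, as CPM (counts per 1000000). Intervals are exact at 95%: Poisson for levels, Clopper-Pearson for shares, conditional for ratios of CPM, and log-normal for ratios of shares. A level under 3 UMIs was set at 3 UMIs in a ratio. Cells were thinned to 1000 UMIs with seed 7. Genes of a comparison needed 100 UMIs over its 2 labels, and 2-fold was the threshold. No doublet caller was run. Python 3.11.15, NumPy 2.4.6, SciPy 1.17.1 and pandas 2.3.3 were used, and the ratio and interval code was tested on simulated data.

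The 3 members, the lists and the splits were chosen with earlier results of these data known. Named genes are the 3 members, each listed gene past 2-fold in at least 1 of 4 comparisons, the 5 genes most alike each member, leaving out genes named only by an identifier, and markers on which a label rests. Without paired or replicate samples, alternatives were other cell filters, totals, thinning depths, labels and thresholds. The spatial section was not used, and 1 gene of the regulator list is not reported here.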

Additional observations from a re-analysis of the deposited data

Results flagged for a closer look

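The 2934 barcodes of the stromal library that carry no annotation, which no comparison used, held UMIs of all 3 genes. Rag1 had 90 UMIs in 47 of these barcodes, or 10.4 CPM, against 14.6 CPM in the annotated cells. Rag2 had 16 UMIs in 11 barcodes, or 1.85 CPM, against 1.23 CPM, and Dntt 38 UMIs in 23 barcodes, or 4.39 CPM, against 5.40 CPM. Fibroblasts and endothelium of the same library were at 1.06, 0.102 and 0.364 CPM. What these barcodes hold was not tested.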

How the results depend on the processing

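No paired analysis was possible because there are no replicates. Of 285 alternative values, 180 stayed within their interval or within 1.5 times a count, 97 moved beyond it and 8 reversed. Among the 93 step ratios on scales other than UMIs per cell, none reversed. Depth limits Rag2 after DP (9 and 3 UMIs) and all B cell values, and labels made from the same cells limit every stage comparison.

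Ratios of DP over DN, for Rag1, Rag2 and Dntt in this order, were 0.856, 0.363 and 0.359 per cell (reversed), 4.94, 2.00 and 2.51 as the mean of the cells' CPM, 5.86, 2.48 and 2.46 without mitochondrial, ribosomal protein and haemoglobin genes, 10.5, 5.37 and 2.90 with initial clusters, and 13.0, 5.45 and 3.21 with the DN label cut to its cluster. Thinning gave 4.96 for Rag1 and 1.89 for Rag2. Over DP-P they were 0.959, 0.466 and 0.463 per cell (reversed), 4.46, 1.89 and 2.38 as means, 3.50, 1.57 and 2.19 with initial clusters, and 3.69, 1.73 and 2.19 within clusters. Without those gene classes Rag1 was at 5.09 and Dntt at 2.46, and thinning gave 4.53 for Rag1 and 2.06 for Rag2.

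Over DP-sig, Rag1 was at 82.1 as a mean and 77.8 thinned, Rag2 at 16.2 thinned, and Dntt at 7.42 per cell. Over the mature labels, Rag1 was at 34.3 as a mean, 20.9 without those classes, 38.6 thinned and 9.08 per cell, Rag2 at 8.27 per cell, and Dntt at 26.7 as a mean, 17.0 without those classes and 7.38 per cell. Without mature cells with Ptcra they were 51.9, 38.4 and 38.8. With initial clusters, Early SP in place of DP-sig (chosen after seeing the data) gave 12.2, 11.5 and 4.97, and Mature SP in place of the mature labels moved no value beyond its interval.

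In stromal B cells without T cell genes, Rag1 was at 11.4 CPM and 5.71% of cells, Rag2 at 1.76 CPM and 2.86%, and Dntt at 0 for both. Without Cd8a, Cd8b or Ptcra, Rag1 was at 23.2 CPM and Dntt in 4.94%. The means of CPM were 102, 27.6 and 43.8. Thinning gave Rag1 89.4 CPM and 4.47%, Rag2 33.5 CPM and 3.35%, and Dntt 1.12%. In the thymocyte library Rag1 and Dntt were at 0 CPM and 0% under both filters and after thinning.

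Thinned to 500 UMIs, the Cd4 split gave 2.56 for Rag1 in DN, and 2.19 for Rag1 and 2.12 for Rag2 in DP-P (2.24 at 2000). The mitotic split gave 1.18 for Rag1 in DP-P at 500, 0.986 for Rag1 in DP at 2000, and 0.835 at 500 and 0.921 at 2000 for Rag2 in DP, both reversed. By Spearman's correlation, 2 of the 5 genes named for Rag2 and 3 of those for Dntt were kept.

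At 3-fold, regulators higher in DP numbered 4 over DN, 0 over DP-P and 0 over DP-sig, those lower 0 over DN and DP-P, and end-joining genes over the mature labels 2 higher and 0 lower. At 1.5-fold, end-joining genes numbered 4 higher over DP-P, 2 lower over DP-sig, and 9 higher and 2 lower over the mature labels, and regulators 12 higher over DP-P, 6 lower over DP-sig and 8 higher over the mature labels. With genes of at least 1 UMI, 1 end-joining gene was lower over DP-sig and 2 over the mature labels.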
